A study of Mus musculus with 6 samples.

Results

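The genes described here are 6 autophagy receptors (Calcoco2, Calcoco1, Sqstm1, Nbr1, Optn and Tax1bp1) and 4 genes of the ATG8 family (Map1lc3a, Map1lc3b, Gabarap and Gabarapl1). They were taken by symbol from the 55401 genes of the count table, and all 10 were among the 17778 genes tested. The set was chosen by gene family and, in part, selected on the measured fall of Calcoco2 in the libraries labelled KO, so the difference between KO and expressing cells is given for the 10 genes as a description, with no p-value. The libraries hold polyadenylated RNA of mouse embryonic stem (ES) cells, cultured pluripotent cells of the early embryo, in a study of TAF13, a subunit of the RNA polymerase II initiation factor TFIID. The 3 libraries labelled KO came from cells so titled and grown with doxycycline for 7 days. The 3 expressing libraries came from cells labelled as expressing 3XHA-Taf13, Taf13 with an HA tag, and grown without the drug for the same 7 days. Each library came from its own Petri dish. Every library labelled KO, and no expressing library, had doxycycline, so the parts of the drug and of what the KO label stands for in any difference cannot be told apart. The labels name neither the ES line nor whether the dishes came from 1 clone.

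Macroautophagy encloses cytoplasm in a double membrane that later fuses with lysosomes. Small ubiquitin-like proteins of the ATG8 family, divided into the LC3 and GABARAP branches, are joined to a lipid of that membrane. Selective autophagy receptors hold cargo, often marked with ubiquitin, with one part of the protein and bind ATG8 proteins with another, so the cargo is enclosed. In pluripotent cells this route is known for clearing mitochondria and protein aggregates.

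Total counts ran from 33953189 to 50328010 in the libraries labelled KO and from 31219328 to 45957003 in the expressing libraries. Levels are given as CPM, counts scaled to library size with edgeR's trimmed mean of M-values (TMM), and 3 counts correspond to 0.0581 to 0.0961 CPM. The ES cell markers had a summed level of 1900 to 1922 CPM in libraries labelled KO and 2884 to 3064 CPM in expressing libraries, and 7 of 7 were called lower. Primitive endoderm markers were called higher for 8 of 8 genes, with a summed level of 408 to 448 CPM in libraries labelled KO and 78.9 to 89.2 CPM in expressing libraries. Fibroblast markers summed to 94.2 to 178 CPM in libraries labelled KO and 104 to 133 CPM in expressing libraries, with the highest sum in KO replicate 2. Of these 8 genes 2 were called higher, Dcn (4.29-fold) and Postn (3.14-fold), and 1 lower, Thy1, and no gene of the 3 lists was at 0. Over all tested genes 19.2% were called higher and 20.8% lower. Taf13 itself stood at 12.1, 14.1 and 13.5 CPM in libraries labelled KO and 7.81, 10.1 and 12.2 CPM in expressing libraries, so it was not lower under the KO label: the log2 fold change was 0.40 (95% interval 0.06 to 0.73), not called. The transcript level thus does not show the loss that the label names, and the counts do not separate the tagged from the chromosomal gene. Whether the TAF13 protein was lost cannot be read from these counts. Every direction below is therefore one between libraries labelled KO and libraries labelled as expressing 3XHA-Taf13. Expressing replicate 1 stood apart from its group, and its deviations followed the GC content of the genes (r = 0.553, where the points are genes of 1 library, not replicates). Several of the counts that change without it are given both ways below.

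Because TFIID binds core promoters, the start regions of the genes were read from RefSeq (build GRCm38.p6), as windows of 300 bases with 250 bases before the annotated start. The table held 10 windows for 8 of the 10 genes, all but Calcoco2 and Map1lc3a. Shown are the one window with a TATA box core and a window of each of the 2 genes besides Calcoco2 that were called lower. Nbr1 had another window, not shown, at chr11:101551857-101552156. That window holds the start of the annotated gene (101552149), and the Nbr1 window shown lies downstream of it. Capitals mark the letters TATAAA.
Sqstm1 (chr11:50210771-50211070, minus strand): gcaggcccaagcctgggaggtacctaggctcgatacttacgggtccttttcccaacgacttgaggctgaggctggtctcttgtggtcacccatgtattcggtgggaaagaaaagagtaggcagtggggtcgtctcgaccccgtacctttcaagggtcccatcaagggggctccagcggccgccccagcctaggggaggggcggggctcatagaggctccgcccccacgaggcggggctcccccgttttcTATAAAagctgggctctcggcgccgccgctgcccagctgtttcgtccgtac
Nbr1 (chr11:101552404-101552703, plus strand): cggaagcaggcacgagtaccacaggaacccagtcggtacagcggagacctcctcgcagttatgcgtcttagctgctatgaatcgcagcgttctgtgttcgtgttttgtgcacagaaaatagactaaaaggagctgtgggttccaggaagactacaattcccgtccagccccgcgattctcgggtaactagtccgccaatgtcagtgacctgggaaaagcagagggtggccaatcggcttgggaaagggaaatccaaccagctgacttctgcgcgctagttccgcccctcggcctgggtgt
Gabarapl1 (chr6:129532942-129533241, plus strand): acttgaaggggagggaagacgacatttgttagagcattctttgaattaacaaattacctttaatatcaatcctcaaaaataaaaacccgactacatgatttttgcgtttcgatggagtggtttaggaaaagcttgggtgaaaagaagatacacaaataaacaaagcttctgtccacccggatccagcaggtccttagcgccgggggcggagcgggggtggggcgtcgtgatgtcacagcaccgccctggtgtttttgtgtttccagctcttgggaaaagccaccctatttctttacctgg
The letters TATAAA were searched on both strands and lay in 1 of the 10 windows, that of Sqstm1, and in 13.6% of all 32851 promoter windows. In the Sqstm1 window the match straddled the annotated start, with 1 base before it and the others after it. The E-box core CACGTG, which MiT/TFE factors can bind, was in 0 of the 10 windows and 7.15% of all. The core TGATGNAA of composite sites bound by ATF4 was in 0 of the 10 and 3.97% of all. The antioxidant response element core TGACNNNGC was in 2 of the 10, one window each of Map1lc3b and Tax1bp1, and 12.4% of all. No capitals appear in the Nbr1 and Gabarapl1 windows, since none of these letter patterns was found in them. A match describes the letters of a window and does not show that a factor binds there.

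Calcoco2 (ENSMUSG00000006056; chromosome 11, 96099326 to 96111964, minus strand, mm10) encodes NDP52, a receptor known from human cells to bind ubiquitin-coated bacteria and damaged mitochondria. It had 43, 63 and 83 counts in the libraries labelled KO, against 561, 700 and 557 counts in the expressing libraries. On the CPM scale these were 1.23, 1.40 and 1.61 in cells labelled KO, against 18.0, 15.9 and 15.2 in expressing cells. All 3 libraries labelled KO were far below all 3 expressing libraries, and even the lowest count under the KO label was above the floor of 3 counts, so the transcript was still measured. The mean was 1.41 ± 0.188 CPM in cells labelled KO and 16.4 ± 1.43 CPM in expressing cells (SD, n = 3 each), a log2 fold change of -3.51 (KO minus expressing; standard error, SE, 0.130). The level in cells labelled KO was thus 11.4-fold lower (95% interval 9.34 to 14.0), or 8.75% of the expressing level. Only 13 of the 17778 tested genes had a lower log2 fold change. This value chose the set and supports nothing further here. In bulk RNA, fewer cells with a transcript and less transcript per cell cannot be told apart, and the part of the marker differences above in this value was not tested.

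**Figure D1:**
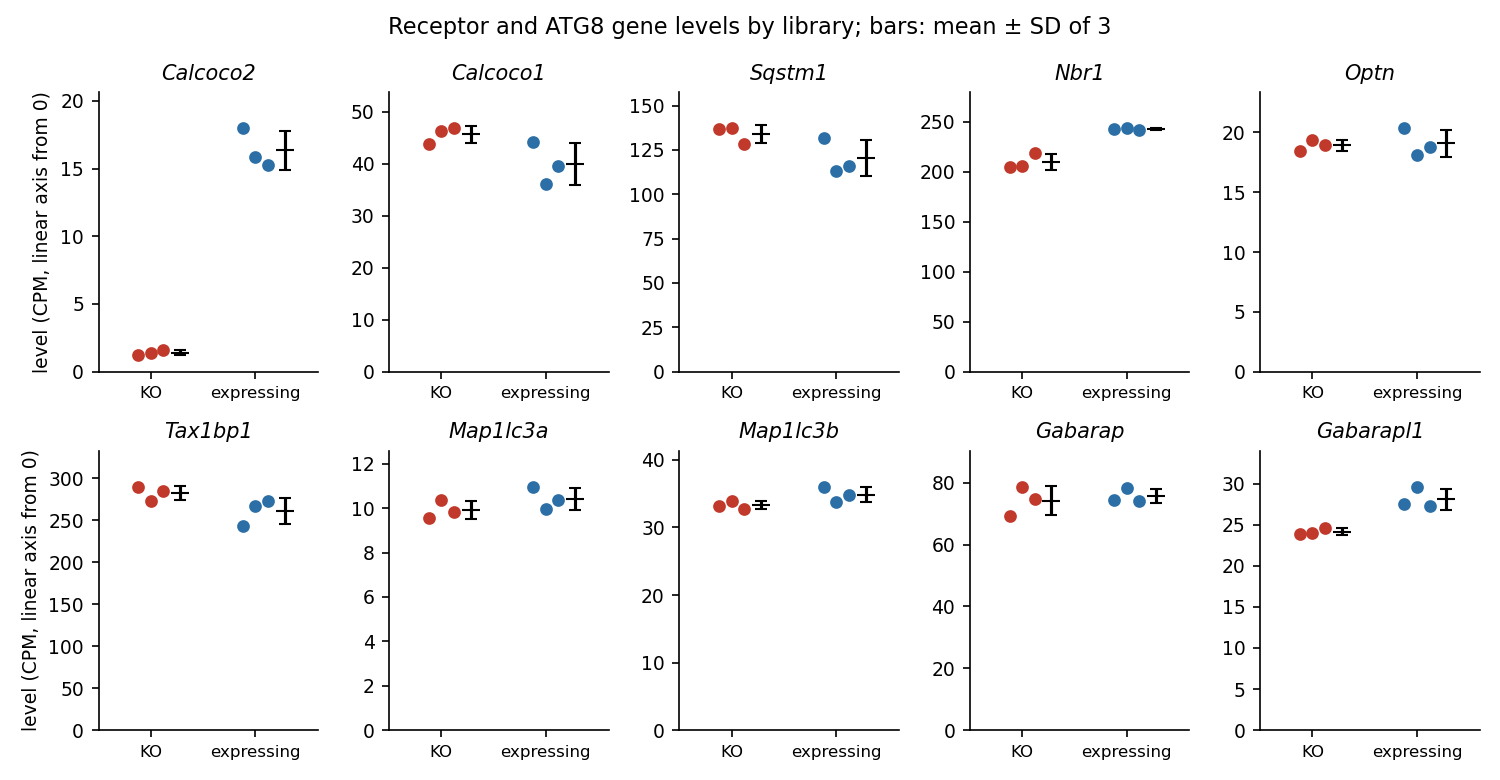
TMM-scaled level of the 10 genes in CPM (vertical axes, linear and starting at 0) in each library labelled KO (red, left) and expressing library (blue, right), with black bars for the mean ± SD of 3 libraries. Calcoco2 stood at 1.23 to 1.61 CPM in libraries labelled KO and 15.2 to 18.0 CPM in expressing libraries, while the log2 fold changes of the other 9 genes lay between -0.22 and 0.19.

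The other 5 receptors stayed close to their expressing level. Sqstm1 (ENSMUSG00000015837; chromosome 11, 50199366 to 50210827) encodes p62, which gathers ubiquitinated proteins into condensates. It had 136.9, 137.1 and 128.2 CPM in libraries labelled KO, against 131.9, 113.1 and 115.7 CPM in expressing libraries. Expressing replicate 1 lay within the range of the libraries labelled KO, and the groups overlapped. The log2 fold change was 0.16 (SE 0.0715) and was not called in edgeR's fit over all genes. Nbr1 (ENSMUSG00000017119; chromosome 11, 101552149 to 101581951), which acts beside p62 on ubiquitinated cargo, had 204.7, 206.3 and 218.5 CPM in libraries labelled KO. The expressing libraries had 243.0, 243.4 and 241.9 CPM, all above the libraries labelled KO. Its log2 fold change of -0.21 (SE 0.0533) was called, and the call was lost without KO replicate 1 or KO replicate 2 and with scaling by library totals alone.

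Calcoco1 (ENSMUSG00000023055; chromosome 15, 102706777 to 102722178), a paralogue of Calcoco2 known as a receptor for endoplasmic reticulum and Golgi, had 43.8, 46.4 and 46.8 CPM in libraries labelled KO. The expressing libraries had 44.3, 36.2 and 39.6 CPM, and expressing replicate 1 was above the lowest library labelled KO. The log2 fold change was 0.19 (SE 0.0831) and was not called. Tax1bp1 (ENSMUSG00000004535; chromosome 6, 52713729 to 52766780), the third gene of that family and a receptor for aggregates and ferritin, had 289.9, 273.0 and 284.7 CPM in libraries labelled KO, against 243.3, 267.1 and 272.9 CPM in expressing libraries. The groups did not overlap, though by a narrow margin, and the log2 fold change of 0.11 (SE 0.0613) was not called. Optn (ENSMUSG00000026672; chromosome 2, 5020642 to 5064051), which encodes optineurin, a receptor for mitochondria and bacteria that TBK1 phosphorylates, had 18.5, 19.3 and 18.9 CPM in libraries labelled KO, against 20.3, 18.1 and 18.8 CPM in expressing libraries. Its log2 fold change was -0.01 (95% interval -0.18 to 0.16). Calcoco2 and its relatives Calcoco1 and Tax1bp1 thus stood at log2 fold changes of -3.51, 0.19 and 0.11.

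Among the ATG8 genes, the LC3 branch showed no called difference. Map1lc3b (ENSMUSG00000031812; chromosome 8, 121590361 to 121598760) encodes LC3B, the usual marker protein of autophagosomes, and had 33.1, 33.9 and 32.8 CPM in libraries labelled KO, against 36.0, 33.8 and 34.7 CPM in expressing libraries. Map1lc3a (ENSMUSG00000027602; chromosome 2, 155276297 to 155278073) had 9.54, 10.35 and 9.84 CPM in libraries labelled KO, against 10.95, 9.97 and 10.37 CPM in expressing libraries. Both pairs of groups overlapped, with log2 fold changes of -0.07 (SE 0.0649) for Map1lc3b and -0.07 (SE 0.0885) for Map1lc3a. In the GABARAP branch, which is known to act later in autophagosome maturation, Gabarap (ENSMUSG00000018567; chromosome 11, 69991143 to 69994951) had 69.3, 78.6 and 74.8 CPM in libraries labelled KO, against 74.5, 78.2 and 74.2 CPM in expressing libraries. The libraries labelled KO spanned the whole range of the expressing libraries, and the log2 fold change was -0.03 (SE 0.0660). Gabarapl1 (ENSMUSG00000030161; chromosome 6, 129533160 to 129542346) had 23.8, 23.9 and 24.6 CPM in libraries labelled KO, against 27.5, 29.6 and 27.3 CPM in expressing libraries. All libraries labelled KO were below all expressing libraries, and the log2 fold change of -0.22 (SE 0.0703) was called. That call was lost under 9 of the 14 alternatives run, among them leaving out any library except expressing replicate 1.

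In the fit over all genes, 3 of the 10 were called, all lower, against 40.0% of all tested genes called in either direction, 19.2% higher and 20.8% lower. KO and expressing libraries did not overlap for 4 of the 10, against 53.5% of all tested genes. For the 9 genes other than Calcoco2 the log2 fold changes ran from -0.22 to 0.19, and every 95% interval lay within 1.5-fold in either direction (bounds -0.38 and 0.38), as did those of 48.0% of all tested genes. The median of the 10 was -0.05, beside -0.01 over all tested genes. Since the set was chosen with this contrast in view, these counts are a description and nothing is read from them. Without expressing replicate 1, 6 were called, 3 higher (Calcoco1, Sqstm1 and Tax1bp1) and 3 lower (Calcoco2, Nbr1 and Gabarapl1). The share of all tested genes called was 50.9% in that fit. Without KO replicate 1 or without KO replicate 2, 1 was called, Calcoco2, beside 29.7% and 28.8% of all tested genes. With library totals 3 were higher and 1 lower, beside 39.6% of all tested genes called. Calcoco2 was the one gene of the 10 called under each of the 14 alternatives, with log2 fold changes from -3.62 to -3.41.

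**Figure D2:**
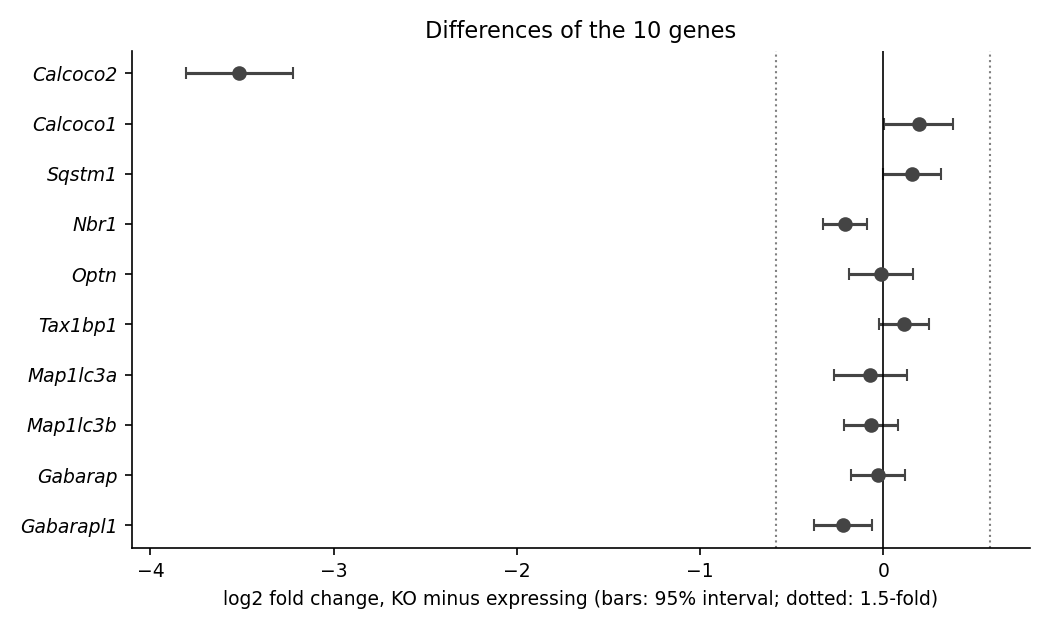
Log2 fold change (horizontal axis, KO minus expressing) of each of the 10 genes, with its 95% interval as a bar and dotted lines at a 1.5-fold difference in either direction. Calcoco2 lies at -3.51, and the other 9 genes lie between -0.22 and 0.19 with every interval inside the dotted lines.

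To compare levels between genes, CPM were divided by the merged exon length in kb. On this per-length scale Gabarap (40.2 ± 2.55 CPM per kb in cells labelled KO and 41.0 ± 1.19 in expressing cells; SD, n = 3) and Sqstm1 (39.9 ± 1.503 in cells labelled KO and 35.8 ± 3.03 in expressing cells) were the highest, followed by Nbr1 (30.5 ± 1.102 in cells labelled KO and 35.3 ± 0.117 in expressing cells) and Tax1bp1 (28.3 ± 0.863 in cells labelled KO and 26.1 ± 1.57 in expressing cells). In cells labelled KO, Gabarapl1, Map1lc3a, Calcoco1, Optn and Map1lc3b came next, from 12.0 down to 4.43 CPM per kb, and Calcoco2 was last of the 10 at 0.871 ± 0.116. In expressing cells Calcoco2 was sixth in the order, at 10.1 ± 0.882 CPM per kb, between Gabarapl1 (14.0 ± 0.640) and Map1lc3a (8.83 ± 0.417). Libraries of neighbours in the order overlapped for Gabarap with Sqstm1 and Map1lc3a with Calcoco1 in cells labelled KO, and for Sqstm1 with Nbr1 in expressing cells. With the longest transcript as the length, Tax1bp1 was the highest in both groups, and Calcoco2 was again last in cells labelled KO but seventh, below Calcoco1, in expressing cells.

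Calcoco2 made up a small part of the receptor pool in both groups. It held 0.673% to 0.880% of the summed per-length receptor level in libraries labelled KO and 7.94% to 8.99% in expressing libraries. Sqstm1 held 33.9% to 36.4% in libraries labelled KO and 28.9% to 31.9% in expressing libraries, and Tax1bp1 24.3% to 25.7% in libraries labelled KO and 19.8% to 23.1% in expressing libraries. These shares depend on the length used. By the longest transcript Calcoco2 held 0.411% to 0.537% in libraries labelled KO. It held 5.00% to 5.80% in expressing libraries, there below Calcoco1 (6.59% to 7.80%). By that length Tax1bp1 stood above Sqstm1, at 35.2% to 36.9% against 25.99% to 28.1% in libraries labelled KO and 30.0% to 34.2% against 22.9% to 25.8% in expressing libraries. The 6 receptors summed to 112.7 ± 0.311 CPM per kb in cells labelled KO and 119.4 ± 3.37 in expressing cells (SD, n = 3 each). Without Calcoco2 the sums were 111.8 ± 0.358 in cells labelled KO and 109.4 ± 2.61 in expressing cells, and their ranges overlapped at expressing replicate 1. The 4 ATG8 genes summed to 65.1 ± 2.99 CPM per kb in cells labelled KO and 68.4 ± 1.45 in expressing cells, and Gabarap held 60.7% to 62.9% of that sum in libraries labelled KO and 59.3% to 60.5% in expressing libraries.

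**Figure D3:**
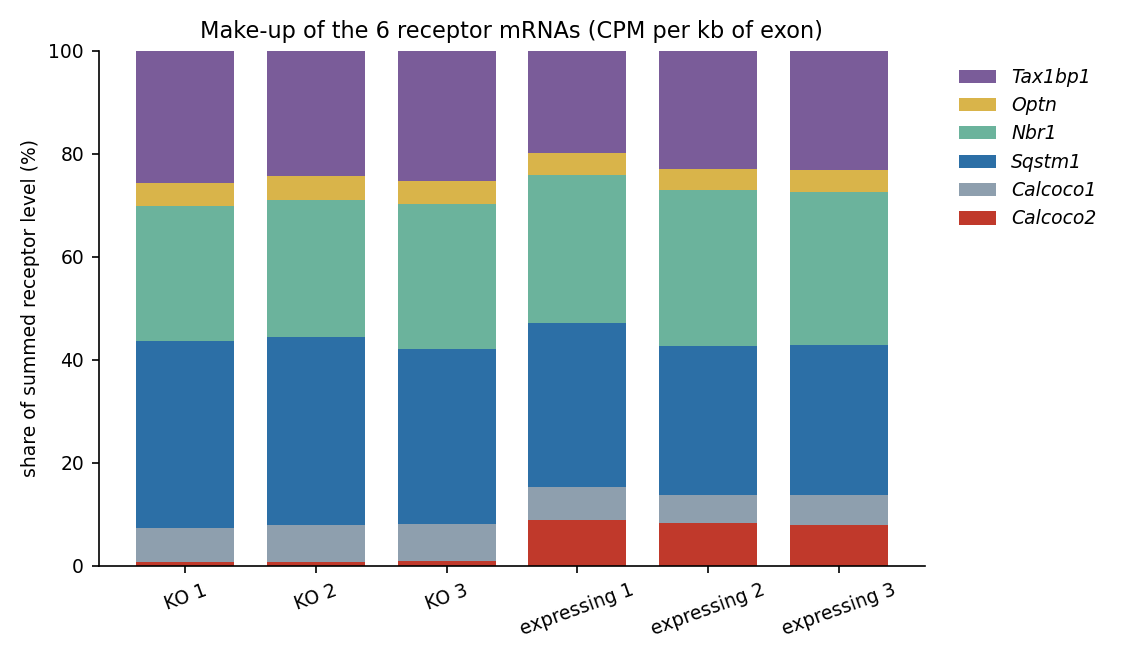
Share of the summed per-length level of the 6 receptor genes (vertical axis, percent of CPM per kb of merged exon) held by each gene in the 3 libraries labelled KO (left) and the 3 expressing libraries (right). The Calcoco2 share (red, at the base) was 0.673% to 0.880% in libraries labelled KO and 7.94% to 8.99% in expressing libraries.

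Other autophagy genes were listed by role, outside the 10, and read from the same fit. The lists were drawn up with earlier results of these data known, so their shares and medians are a description. Of 93 such genes, all tested, 14 rose and 26 fell in cells labelled KO (edgeR, adjusted p under 0.05 over all tested genes), or 43.0% against 40.0% of all genes, and their median log2 fold change was -0.10 against -0.01. With library totals 18 were higher and 17 lower. Of 12 genes for the remaining ATG8 and its conjugation machinery, 1 rose and 2 fell (25.0% called). Atg7, the E1-like enzyme that activates ATG8 and ATG12, fell to 5.90 ± 0.524 CPM in cells labelled KO, against 9.67 ± 1.29 CPM in expressing cells (SD, n = 3 each; log2 fold change -0.70, SE 0.125, edgeR adjusted p = 0.00188). Atg16l2 (-0.44, SE 0.131) also fell and Atg4c, a protease that trims ATG8 proteins, rose (0.37, SE 0.124). The Atg4c call was lost without any one library labelled KO or without expressing replicate 3 (edgeR adjusted p from 0.0842 to 0.130). The Atg16l2 call was lost if KO replicate 2 (0.0772) or KO replicate 3 (0.106) was left out, and under library totals (0.0725).

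In the ULK1 complex, which starts autophagosome formation, 1 of 5 genes rose and 1 fell (40.0% called, beside 40.0% of all tested genes). Ulk2, a kinase paralogous to ULK1, rose to 32.7 ± 2.43 CPM in cells labelled KO, against 16.2 ± 2.202 CPM in expressing cells (SD, n = 3 each; log2 fold change 1.01, SE 0.108, edgeR adjusted p = 1.07e-04). Atg101, a scaffold of the complex, fell (-0.48, SE 0.102). In all, 2 of the 5 fell without expressing replicate 2, with no filter, or with the GC trend removed, alone or with replicate number as a term. Of 8 genes of the class III PI3-kinase, which makes the lipid PI3P on the forming membrane, 3 fell and 0 rose in edgeR (37.5% called). The 95% intervals of the 2 with a positive fold change, Becn1 (0.06) and Rubcn (0.16), included 0, so neither passed an unadjusted 0.05, and DESeq2 called 0 higher. Without expressing replicate 1, or with the GC trend removed, 1 rose. The 3 decreases became 2 without any one library labelled KO or without expressing replicate 3. They were also 2 with library totals, no filter, replicate number as a term, or DESeq2, and 4 with the GC trend removed. Atg14, the subunit that directs the kinase to autophagy, fell to 20.8 ± 0.829 CPM in cells labelled KO, against 30.7 ± 0.720 CPM in expressing cells (log2 fold change -0.56, SE 0.0702, edgeR adjusted p = 2.61e-04), and Ambra1 fell as well (-0.36, SE 0.0646).

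Of 11 genes for ATG9, lipid transfer and PI3P effectors, 1 rose and 4 fell (45.5% called, beside 40.0% of all tested genes). The 4 became 2 without any one library labelled KO or without expressing replicate 3, and 1 with library totals. They were also 2 with no filter or by DESeq2. Vmp1, a scramblase of the endoplasmic reticulum, rose to 132.7 ± 1.67 CPM in cells labelled KO, against 82.2 ± 8.63 CPM in expressing cells (log2 fold change 0.69, SE 0.0784, edgeR adjusted p = 1.48e-04), and it shares exons with Mir21a. Atg2a, a lipid transfer protein, fell (-0.70, SE 0.119), as did Wipi2 (-0.23, SE 0.0539), whose call was lost with library totals (edgeR adjusted p = 0.0766). Of 14 genes for fusion with lysosomes, 2 rose and 2 fell (28.6% called). The SNARE genes Stx17 (0.41, SE 0.0863) and Snap29 (0.41, SE 0.0762) rose together. Ykt6 (-0.16, SE 0.0554) and Vps33a (-0.18, SE 0.0640) fell, and each of these calls was lost in 10 of the 14 alternatives, including any one library labelled KO or expressing replicate 2 or 3 left out, library totals, median-ratio size factors, no filter and DESeq2. Without expressing replicate 2, 4 genes of the list fell, and with the GC trend removed 6 fell.

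Of 21 receptors for single organelles or cargoes, 5 rose and 6 fell (52.4% called, beside 40.0% of all tested genes). Retreg1, which encodes the endoplasmic reticulum receptor FAM134B, rose to 15.5 ± 0.980 CPM in cells labelled KO, against 8.04 ± 2.02 CPM in expressing cells (SD, n = 3 each; log2 fold change 0.94, SE 0.157, edgeR adjusted p = 0.00135). Stbd1, a glycogen-binding receptor, rose (0.86, SE 0.125), while Nipsnap1, a mitochondrial protein that recruits receptors to damaged mitochondria, fell (-0.53, SE 0.0620), as did Nufip1, described as a receptor for ribosomes (-0.36, SE 0.0625). The 5 increases became 2 without KO replicate 1 and 3 without KO replicate 2 or KO replicate 3. Without expressing replicate 1, 7 rose and 7 fell. Of 12 kinases, ubiquitin ligases and adaptors that act with the receptors, 2 rose and 1 fell (25.0% called). Lgals3, a galectin that marks broken membranes, fell to 8.32 ± 0.284 CPM in cells labelled KO, against 19.9 ± 1.65 CPM in expressing cells (log2 fold change -1.26, SE 0.0911, edgeR adjusted p = 1.26e-05). Tank, an adaptor of TBK1 (0.64, SE 0.0875), and Cyld, a deubiquitinase (0.71, SE 0.0844), rose, and without expressing replicate 1, 4 genes of the list rose and 2 fell.

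**Figure D4:**
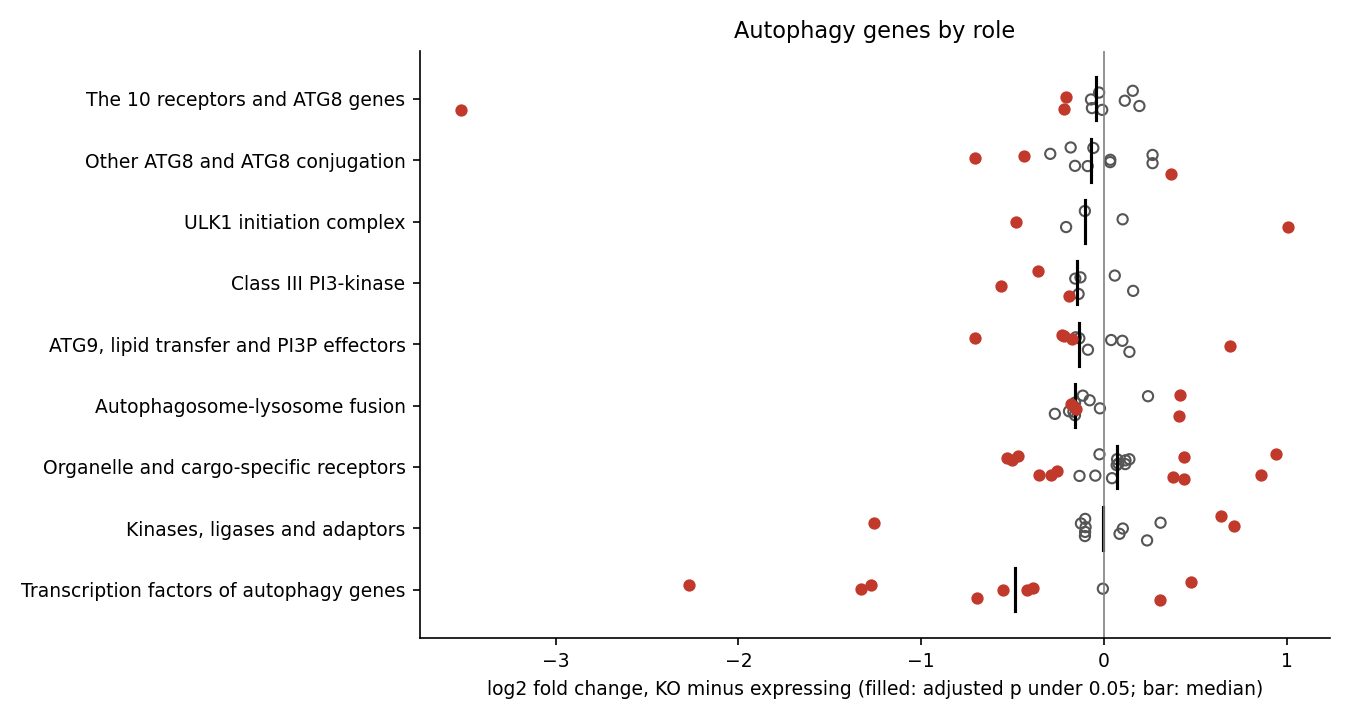
Log2 fold change (horizontal axis, KO minus expressing) of the 10 receptor and ATG8 genes and of 93 other autophagy genes by role. Each point is a gene, filled where it was called (edgeR adjusted p under 0.05), and the black bar is the median of its list. Of the 93 genes, 14 were higher and 26 lower, and Calcoco2, at -3.51, lies below every gene of the other lists.

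Of 10 transcription factors described as regulators of autophagy genes, 7 fell and 2 rose, beside 20.8% lower and 19.2% higher over all tested genes. The counts were 7 and 2 under each alternative run, and the list was drawn up with earlier results of these data known. Atf4, the stress factor that raises amino acid and autophagy genes, fell to 43.6 ± 2.21 CPM in cells labelled KO, against 210.6 ± 8.93 CPM in expressing cells (SD, n = 3 each; log2 fold change -2.27, SE 0.0655, edgeR adjusted p = 1.79e-07). Its partner Ddit3, which encodes CHOP, fell by 1.27 on the log2 scale (SE 0.118) and shares its locus with Mars and a second annotated Ddit3 gene. Tfeb, a master regulator of lysosomal and autophagy genes, fell to 8.89 ± 0.288 CPM in cells labelled KO, against 22.4 ± 4.49 CPM in expressing cells (-1.33, SE 0.135, edgeR adjusted p = 7.99e-05). Its relatives Tfe3 (-0.39, SE 0.0644) and Mitf (-0.70, SE 0.119) fell too. Nfe2l2, which encodes NRF2, the antioxidant factor that is known to induce Sqstm1, fell (-0.55, SE 0.0588), as did Foxo1 (-0.42, SE 0.0777). Foxo3 rose (0.30, SE 0.0541), as did Zkscan3, described as a repressor of autophagy genes (0.47, SE 0.0681), and Bach1 had a log2 fold change of -0.01 (SE 0.0933). Beside these, Calcoco2 stood at -3.51 and the other 9 receptor and ATG8 genes between -0.22 and 0.19. Whether the factors act on these genes here was not tested.

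The genes next to Calcoco2 did not share its difference. Within 100 kb of its start site lay 6 protein-coding genes, of which 4 were tested and 1 was called. Ttll6, whose start lies 21.8 kb upstream on the other strand, rose to 4.47 ± 0.373 CPM in cells labelled KO, against 3.10 ± 0.358 CPM in expressing cells (SD, n = 3 each; log2 fold change 0.54, SE 0.134, edgeR adjusted p = 0.011). Downstream, Atp5g1 (36.3 kb) had 5.50 ± 0.700 CPM in cells labelled KO and 4.32 ± 0.829 CPM in expressing cells (0.36, SE 0.158, edgeR adjusted p = 0.0969), and it was called without expressing replicate 1 (0.54) and with no filter (0.37). Ube2z, a ubiquitin-conjugating enzyme gene 46.6 kb downstream, had 218.2 ± 2.41 CPM in cells labelled KO and 218.8 ± 4.58 CPM in expressing cells, with a 95% interval of the log2 fold change from -0.12 to 0.11. Snf8 (77.1 kb), a subunit of the ESCRT machinery, had an interval from -0.12 to 0.17. None of the 4 intervals reached the -3.22 that bounds Calcoco2 from above. Around all 10 genes, 37 neighbours were tested, of which 7 rose and 14 fell, or 56.8% against 40.0% of all genes. By 2-fold or more, Acap1 (-1.08) and Cldn7 (-1.06) near Gabarap and Rdm1 (-1.03) near Nbr1 fell, while Gabarap itself stood at -0.03.

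**Figure D5:**
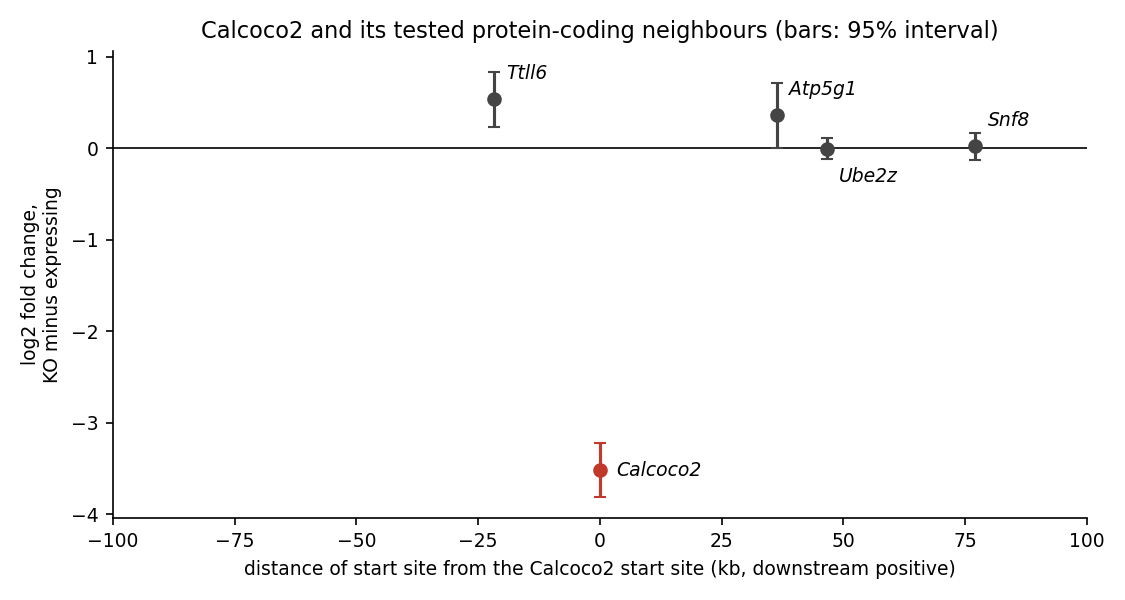
Log2 fold change (vertical axis, KO minus expressing) of Calcoco2 (red) and of its 4 tested protein-coding neighbours (grey) by the distance of their start sites from that of Calcoco2 in kb (horizontal axis, downstream positive), with 95% intervals as bars. Calcoco2 lies at -3.51 and the neighbours at -0.00388 (Ube2z) to 0.54 (Ttll6).

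The genes whose profile over the 6 libraries was nearest to that of Calcoco2 were sought among 14075 genes of at least 1 CPM on average, by the Euclidean distance between log2 CPM centred on each gene's mean. The 5 nearest were Klhl13, which encodes a substrate adaptor for CUL3 ligases (distance 0.480), Pramel7 (0.489), Trh, the thyrotropin-releasing hormone gene (0.609), the noncoding RNA 2310043M15Rik (0.836) and Napsa (0.897). Klhl13 had 21.9, 24.4 and 25.1 CPM in libraries labelled KO, against 206.1, 247.7 and 247.5 CPM in expressing libraries. Pramel7 had 0.143, 0.199 and 0.271 CPM in libraries labelled KO, against 2.34, 2.42 and 2.93 CPM in expressing libraries. A likeness over 6 libraries in 2 groups mainly reflects the size of the difference between the groups, and no autophagy gene of the lists above was among the 5. The lowest of those genes besides Calcoco2 was Atf4 at -2.27, against -3.58 to -2.97 for the 5. Their absence thus follows from the size of the difference.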

How the data were processed

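Polyadenylated RNA of 3 KO and 3 expressing libraries, grouped by sample title, was analysed from 1 table of whole-number read counts, which the authors deposited without normalization for 55401 Ensembl genes. The submitters' processing notes name HTSeq 0.6.1p1, STAR 2.5.3a, cutadapt 1.10, bcl2fastq 2.20.0.422 and build mm10. The HTSeq strand option and the annotation were not given in the sources used here. The library kit marks strand, but reads of overlapping genes on opposite strands (Mrnip for Sqstm1, Zcchc14 for Map1lc3b, Gm43966 for Tax1bp1, 4930551O13Rik for Optn and 1700101I11Rik for Gabarapl1) may not be fully separated. GENCODE M21 named 55141 of the genes.

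The tests used edgeR 4.0.16 under R 4.3.3: filterByExpr (minimum count 10, minimum total 15), TMM scaling, and the quasi-likelihood test (glmQLFit, robust) with group as the only term. P-values were adjusted by Benjamini-Hochberg over all 17778 tested genes (threshold 0.05). Standard errors and 95% intervals came from the test statistic. The fit was tested on simulated counts. Replicate numbers did not pair the libraries. The members and gene lists were chosen with earlier results of these data known. Named genes were all 10 members, up to 2 calls per direction with the smallest p in each list, all listed transcription factors, the tested neighbours of Calcoco2, 2-fold called neighbours of the others, and the 5 nearest profiles. Proteins were not used here. Alternatives were DESeq2 1.42.0, other scalings and filters, a replicate block, removal of the GC trend, and leaving out each library. P-values measure the spread between dishes, which may share a starting culture, and floors cover counting error only.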

Additional observations from a re-analysis of the deposited data

How the results depend on the processing

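Calcoco2, whose fall chose the set, was called lower under all 14 alternatives, which is a description only. The called neighbours ranged from 16 without KO replicate 3 to 27 without expressing replicate 1 (21 as reported). In those fits 28.8% and 50.9% of all tested genes were called. The number of the 10 genes called was 3 as reported, beside 40.0% of all tested genes. With the GC trend removed it was 5, beside 52.8%, and 5 together with the replicate block, beside 52.1%. When a library was left out it ran from 1 to 6. It was lowest without KO replicate 1 (beside 29.7%) or KO replicate 2 (28.8%), and highest without expressing replicate 1 (50.9%). With the replicate block alone it was 2, beside 37.4%, since Gabarapl1 was lost (Calcoco2 and Nbr1 were called). Same-numbered libraries deviated together by r = 0.0236, -0.0342 and 0.0419 across genes, and in 1 of 3 numbers the library labelled KO correlated best with its own number, so the block rests on numbers alone. The block left 2 of the 4 decreases in the ATG9 and lipid transfer list and 0 of the 2 in the fusion list. It gave 3243 higher and 3401 lower genes, against 3422 and 3695 as reported. With the GC trend removed, 4457 genes were higher and 4929 lower, and the 26 decreases among the other autophagy genes became 39. With library totals in place of TMM, 4465 were higher and 2572 lower, those 26 decreases became 17, and the median of all genes moved from -0.01 to 0.08. Scaling thus turned the split of small differences and left that of Calcoco2 (-3.43). The causes of these shifts were not tested.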
